A study of Mus musculus with 11 samples.

Results

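The C-type lectin receptors of myeloid cells described here are 10 genes, Clec4n, Clec4d, Clec4e, Clec7a, Clec5a, Clec12a, Clec4a1, Clec4a2, Clec4a3 and Clec9a, taken by name from the 37375 genes in the deposited tables. All 10 were present in both tables and passed the filter on low reads in both comparisons. Clec9a reached the level that the filter needs in every library only in WT_SP and KO_TAM, the groups where it was higher. Its 2 tests are therefore not independent of the filter. The study sorted macrophages from C57BL/6 mice, 6 to 8 weeks old, that carried subcutaneous Lewis lung carcinoma (LLC) tumors for 14 days after injection of 500000 cells. Total RNA was taken with Trizol. The WT_TAM group (n = 4 libraries) held tumor-associated macrophages of Sin1fl/fl mice without Cre, and the KO_TAM group (n = 4) those of LysMCre;Sin1fl/fl mice. The WT_SP group (n = 3) held splenic macrophages of Sin1fl/fl mice, so every group had the floxed allele and a tumor. LysM-Cre is expressed from the Lyz2 locus and is active in granulocytes and other myeloid cells as well as macrophages. The sort took CD45+ cells that stained for F4/80 and lacked Ly6G and Ly6C. It asked for CD11b in the tumor, and for low CD11b and no TCRβ in the spleen, so the site comparison is also a comparison of gates. The labels do not tie libraries to single mice, and the spread behind each p-value may therefore be technical.

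C-type lectin receptors are membrane proteins with a carbohydrate recognition fold through which macrophages and dendritic cells bind microbial sugars, lipids and material of dead cells. The activating receptors signal through the kinase SYK and the adaptor CARD9 to NF-kB, and this route drives cytokine genes. Clec4e (Mincle), Clec4d (MCL) and Clec4n (Dectin-2) have short tails and signal through the Fc receptor gamma chain (Fcer1g), while Clec5a (MDL-1) signals through DAP12 (Tyrobp). Clec7a (Dectin-1) and Clec9a (DNGR-1) carry a single-tyrosine activating motif, the hemITAM, in their own tails. Clec4a2 (DCIR) and Clec12a (MICL) carry an immunoreceptor tyrosine-based inhibitory motif (ITIM) that recruits phosphatases. Clec4a1 and Clec4a3 are close relatives of Clec4a2.

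The start of the coding sequence shows this division of the family, because it encodes the cytoplasmic tail. The first 20 codons (60 bases, mm10/GRCm38, GENCODE vM21 transcripts) are given 5′ to 3′ for the receptors with long tails. Capitals mark codons that match the inhibitory pattern (I, V, L or S, any residue, Y, 2 residues of any kind, L or V) in Clec4a2 and Clec12a, and the core of the hemITAM (Y, 2 residues of any kind, L) in Clec7a and Clec9a.
Clec4a2: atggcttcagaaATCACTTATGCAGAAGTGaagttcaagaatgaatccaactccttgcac
Clec12a: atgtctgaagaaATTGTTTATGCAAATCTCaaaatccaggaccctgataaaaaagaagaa
Clec7a: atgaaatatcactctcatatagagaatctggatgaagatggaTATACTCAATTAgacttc
Clec9a: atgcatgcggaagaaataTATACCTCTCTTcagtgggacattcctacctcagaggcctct
Clec4a1: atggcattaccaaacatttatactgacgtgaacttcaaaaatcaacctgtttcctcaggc
Clec4a3: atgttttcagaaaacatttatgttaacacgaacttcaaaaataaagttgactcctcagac
The inhibitory match lay at codons 5 to 10 of both Clec4a2 and Clec12a. Clec4a1 and Clec4a3 held no match to either pattern in these codons, although their coding sequences were 75.1% and 77.2% identical to that of Clec4a2 over the aligned bases. Clec4n, Clec4d, Clec4e and Clec5a held no match either. Clec12a also matched the shorter pattern, which is contained in its inhibitory match.

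All 10 genes lie on chromosome 6. Clec4a1 (chr6:122921848-122934619, + strand), Clec4a3 (chr6:122952515-122969875, +), Clec4a2 (chr6:123106428-123143999, +), Clec4n (chr6:123229843-123247021, +), Clec4d (chr6:123262111-123275265, +) and Clec4e (chr6:123281789-123289870, -) stand in a block of 368 kb. Clec12a (chr6:129342691-129365303, +), Clec9a (chr6:129408862-129424763, +) and Clec7a (chr6:129461591-129472779, -) stand in a second block of 130 kb, and Clec5a (chr6:40574894-40585821, -) lies alone. Of the distinct 100-base windows of the transcripts, 8 of the 10 genes shared none with another gene. Clec4a2 shared 64 of 2990 windows (2.14%) with Clec4a4, and Clec9a shared 86 of 3477 (2.47%) with Clec1b, so reads from those stretches could be split between neighbours.

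The libraries held 7639550 to 13118534 reads, with WT_TAM replicate 4 the shallowest. Mapkap1, the gene of Sin1, stood at 71.1, 66.4, 59.7 and 30.7 CPM (reads scaled to a common library total) in the WT_TAM libraries and at 44.0, 54.1, 43.3 and 45.9 CPM in the KO_TAM libraries. The groups overlapped through WT_TAM replicate 4, and a gene-level sum cannot show the deleted part alone. Lyz2 was lower in every KO_TAM library (2744 to 15235 CPM) than in every WT_TAM library (22293 to 33744 CPM). Defining macrophage markers were present in all 3 groups, none of the 9 listed being at 0 reads throughout a group. Their summed level was higher in the tumor, with 10376 to 19857 CPM in WT_TAM (site table) against 3032 to 3730 CPM in WT_SP. Within that list Adgre1, the F4/80 gene, was at 295 to 707 and 276 to 341 CPM, Itgam, the CD11b gene of the gate, at 187 to 291 and 12.2 to 14.4 CPM, and C1qb, a complement gene, at 2984 to 8113 and 656 to 803 CPM. Red pulp macrophage markers (7 genes) went the other way, with 435 to 1061 CPM in WT_TAM and 3996 to 4444 CPM in WT_SP. The splenic libraries also carried markers of other cells. The summed level of 7 B and plasma cell markers was 7896 to 8990 CPM in WT_SP against 10.3 to 74.5 CPM in WT_TAM.

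The comparison of tumor with splenic macrophages asks how tumor macrophages differ from peripheral ones in the same kind of tumor-bearing mouse. All 10 receptors differed, 9 higher and Clec9a lower in the tumor. Clec9a passed the filter on low reads through its WT_SP libraries. The largest differences were in Clec5a, Clec4d, Clec7a and Clec4e, which ranged from 32.1 to 71.0 times the splenic mean. Clec4n, Clec4a2 and Clec12a were 3.21 to 6.47 times as high, and Clec4a1 and Clec4a3 were 1.75 and 1.60 times as high. In this comparison 46.7% of the 14239 genes tested passed the threshold (adjusted p under 0.05, limma with Benjamini-Hochberg adjustment), 23.1% higher and 23.6% lower in the tumor, so passing alone is common. No receptor's groups overlapped, while 26.3% of all genes lay wholly higher and 29.8% wholly lower in the tumor. Differences of at least 4-fold upward that passed were found in 8.41% of genes and in 6 of the 10 receptors. The median log2 fold change was 2.51 over the receptors and -0.07 over all genes tested. These are bulk samples, so fewer cells of a type and less RNA per cell cannot be told apart.

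**Figure D1:**
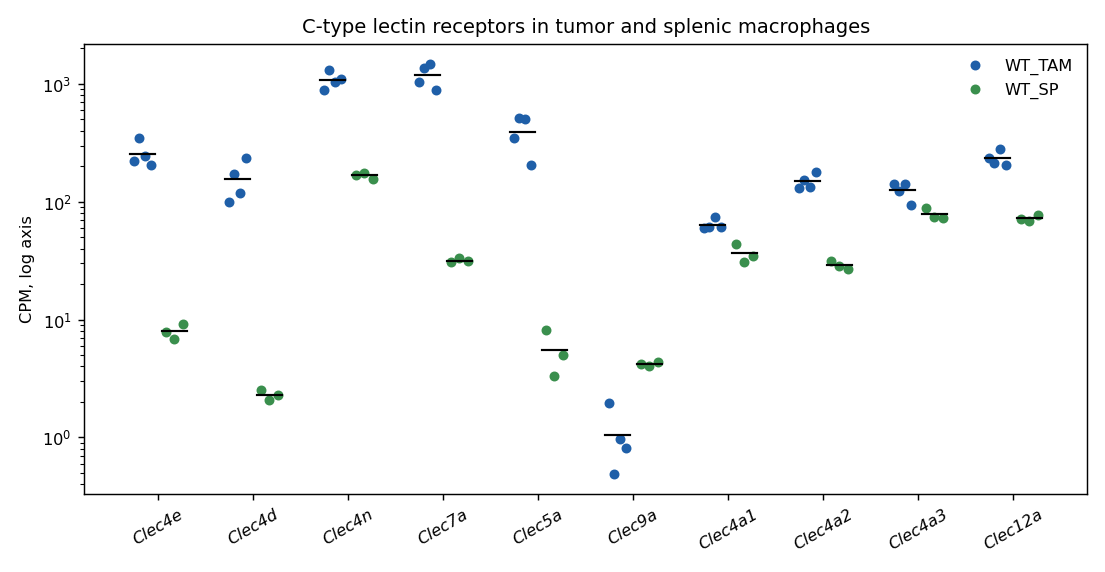
CPM of each receptor in the WT_TAM libraries (n = 4, blue) and the WT_SP libraries (n = 3, green) of the site table, on a log axis, with a bar at each group mean. The groups are farthest apart for Clec4d, Clec5a, Clec7a and Clec4e, close for Clec4a1 and Clec4a3, and in the opposite order for Clec9a.

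Clec4e, which binds mycobacterial cord factor and a nuclear protein released by dying cells, stood at 224, 347, 244 and 206 CPM in WT_TAM and at 7.89, 6.87 and 9.09 CPM in WT_SP. Every tumor library lay far above every splenic library, and the log2 fold change was 4.90 ± 0.22 (SE, adjusted p = 9.38e-07). Clec4d, which forms complexes with Clec4e, stood at 99.7, 171, 118 and 235 CPM in WT_TAM and at 2.54, 2.08 and 2.27 CPM in WT_SP. The splenic values rest on 36, 27 and 31 reads, and the log2 fold change was 5.73 ± 0.30 (adjusted p = 1.76e-06). The ratio of Clec4d to Clec4e CPM within a library, not corrected for length, was 0.45 to 1.14 in the tumor and 0.25 to 0.32 in the spleen, and it does not depend on the scaling between libraries.

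Clec4n, a receptor for fungal mannans, had the highest level per kilobase of the family in both tissues. It stood at 882, 1315, 1032 and 1096 CPM in WT_TAM and at 170, 177 and 155 CPM in WT_SP. The splenic libraries were all lower than the tumor libraries. The log2 fold change was 2.68 ± 0.18 (adjusted p = 6.97e-06). Clec5a, a partner of DAP12 that binds dengue virus, stood at 345, 511, 499 and 204 CPM in WT_TAM and at 8.18, 3.32 and 4.99 CPM in WT_SP. WT_TAM replicate 4 was the lowest tumor library and still lay above all splenic ones. Clec5a had the largest log2 fold change of the family, 6.02 ± 0.38 (adjusted p = 5.06e-06).

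Clec7a, the beta-glucan receptor, stood at 1029, 1354, 1462 and 884 CPM in WT_TAM and at 30.7, 33.0 and 31.2 CPM in WT_SP. The splenic libraries lay within a narrow range far below the tumor libraries, and the log2 fold change was 5.17 ± 0.21 (adjusted p = 6.98e-07). The ratio of Clec7a to Clec4n CPM within a library was 0.81 to 1.42 in WT_TAM and 0.18 to 0.20 in WT_SP. Clec9a, which binds actin filaments exposed by dead cells and marks type 1 conventional dendritic cells, had the lowest mean level per kilobase. It stood at 1.94, 0.49, 0.96 and 0.82 CPM in WT_TAM, from 23, 5, 11 and 5 reads, and at 4.16, 4.01 and 4.33 CPM in WT_SP, from 59, 52 and 59 reads. All tumor libraries were lower than all splenic ones, and Clec9a fell by 1.67 on the log2 scale (SE 0.33, adjusted p = 0.00329). Over the alternatives the value ran from -2.05 to -1.03, and it passed the threshold in all 16. Clec1b, which shares windows with Clec9a, differed in the same direction, at 0.82 to 1.47 CPM in WT_TAM and 24.5 to 27.3 CPM in WT_SP. The part of shared reads in the Clec9a values was not tested.

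The summed level of 8 type 1 conventional dendritic cell markers that do not include Clec9a moved the same way. It was 478 to 555 CPM in WT_TAM and 1039 to 1077 CPM in WT_SP, and Xcr1, a defining receptor of those cells, stood at 1.31 to 6.84 and 19.4 to 22.9 CPM. Other dendritic cell markers (7 genes) summed to 46.7 to 168 CPM in WT_TAM and 699 to 770 CPM in WT_SP. T and NK cell markers (9 genes) summed to 95.6 to 178 and 1003 to 1107 CPM. Neutrophil markers (10 genes) summed to 118 to 238 CPM in WT_TAM and 1075 to 2942 CPM in WT_SP, and monocyte markers (8 genes) to 1615 to 2710 and 1691 to 1920 CPM. Eosinophil, basophil and mast cell markers (9 genes) overlapped, at 24.1 to 203 and 155 to 195 CPM. The sum of the type 1 dendritic cell list was mostly Irf8, which macrophages also express, at 402 to 453 CPM in WT_TAM and 584 to 644 CPM in WT_SP. Fibroblast markers (7 genes) were higher in the tumor, at 447 to 1006 CPM against 10.1 to 48.4 CPM, as were epithelial or tumor markers (7 genes), at 185 to 412 against 11.97 to 20.09 CPM. Transcripts of the mitochondrial genome (9 genes) were at 11152 to 70289 CPM in WT_TAM and 5909 to 7916 CPM in WT_SP. The part of all these lists, and of the macrophage markers, in the receptor differences was not tested. Markers of B cells, which were so much higher in the spleen, share the library total with the receptors.

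Clec4a2, the inhibitory one of the Clec4a receptors described here, stood at 132, 153, 134 and 179 CPM in WT_TAM and at 31.2, 28.4 and 26.9 CPM in WT_SP. The groups did not overlap, and the log2 fold change was 2.34 ± 0.18 (adjusted p = 1.13e-05). Clec12a, which binds uric acid crystals, stood at 236, 212, 281 and 204 CPM in WT_TAM and at 71.1, 69.1 and 77.8 CPM in WT_SP. Its log2 fold change was 1.67 ± 0.17 (adjusted p = 8.51e-05). Both ITIM-bearing members described here were higher in tumor macrophages.

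Clec4a1 stood at 59.4, 61.3, 74.4 and 60.5 CPM in WT_TAM and at 43.8, 31.0 and 34.8 CPM in WT_SP, a log2 fold change of 0.81 ± 0.19 (adjusted p = 0.00704). Clec4a3 stood at 142, 123, 143 and 94.6 CPM in WT_TAM and at 89.2, 74.1 and 72.2 CPM in WT_SP, a log2 fold change of 0.66 ± 0.20 (adjusted p = 0.0238). Neither pair of groups overlapped, but WT_TAM replicate 4 and WT_SP replicate 1 were close for Clec4a3. Scaled by the library total alone, which moved the median of all genes by -0.46 on the log2 scale, the values were 0.34 for Clec4a1 (adjusted p = 0.207) and 0.19 for Clec4a3 (adjusted p = 0.524). Clec4a3 also missed the threshold without WT_TAM replicate 1, 2 or 3 or WT_SP replicate 2 or 3 (adjusted p = 0.0504 to 0.103), and without the filter on low reads (adjusted p = 0.0663). Under that other scaling the calls over all genes split 2135 higher and 5629 lower, against 3287 and 3364, and 7 receptors were called higher and Clec9a lower. The ratio of Clec4a2 to Clec4a3 CPM within a library, which is free of the scaling, was 0.93 to 1.89 in WT_TAM and 0.35 to 0.38 in WT_SP.

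The bases before the transcription start are shown for the 4 receptors with the largest tumor differences and for Clec9a, the member that was lower. Each line gives the 250 bases before a RefSeq start (GRCm38.p6), 5′ to 3′ on the gene's strand. Capitals mark GAGGAA on either strand (TTCCTC on the other), the core bound by the myeloid factor PU.1.
Clec5a, chr6:40585806-40586055, - strand: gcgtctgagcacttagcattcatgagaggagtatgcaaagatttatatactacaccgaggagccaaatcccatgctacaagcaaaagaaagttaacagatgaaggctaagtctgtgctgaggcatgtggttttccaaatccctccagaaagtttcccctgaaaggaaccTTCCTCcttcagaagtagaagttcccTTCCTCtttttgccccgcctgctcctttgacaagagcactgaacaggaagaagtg
Clec4d, chr6:123261857-123262106, + strand: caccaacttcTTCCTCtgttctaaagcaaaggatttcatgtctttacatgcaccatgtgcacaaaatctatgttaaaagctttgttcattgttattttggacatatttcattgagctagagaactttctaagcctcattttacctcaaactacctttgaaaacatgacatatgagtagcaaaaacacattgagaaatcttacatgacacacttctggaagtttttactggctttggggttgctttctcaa
Clec4e, chr6:123289872-123290121, - strand: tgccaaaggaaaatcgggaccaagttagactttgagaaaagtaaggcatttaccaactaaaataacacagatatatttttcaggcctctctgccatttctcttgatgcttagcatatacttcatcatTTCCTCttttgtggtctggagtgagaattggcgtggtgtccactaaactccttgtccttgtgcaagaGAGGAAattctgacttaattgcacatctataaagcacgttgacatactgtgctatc
Clec7a, chr6:129472780-129473029, - strand: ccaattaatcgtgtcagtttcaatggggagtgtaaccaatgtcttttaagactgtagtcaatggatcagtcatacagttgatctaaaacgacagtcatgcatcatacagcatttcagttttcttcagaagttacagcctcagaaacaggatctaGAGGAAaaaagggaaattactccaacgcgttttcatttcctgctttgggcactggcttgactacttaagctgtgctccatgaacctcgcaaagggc
Clec9a, chr6:129408612-129408861, + strand: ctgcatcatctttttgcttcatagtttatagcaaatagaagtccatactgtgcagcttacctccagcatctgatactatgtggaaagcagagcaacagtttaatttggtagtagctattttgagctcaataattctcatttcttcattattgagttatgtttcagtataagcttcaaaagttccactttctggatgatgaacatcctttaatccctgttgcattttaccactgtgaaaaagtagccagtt
The core was found in 7 of the 9 members that had a window, Clec12a, Clec4a1, Clec4a3, Clec4d, Clec4e, Clec5a and Clec7a, and in 25.9% of the 27025 genes with such a window. The longer AGAGGAA was in the same 7 members and in 9.85% of genes. The letters stood 123 and 56 bases before the start in Clec4e, 81 and 55 in Clec5a, 96 in Clec7a and 240 in Clec4d. Clec4a2 and Clec9a held none in their windows. TTGCNNAA, a C/EBP pattern, was in Clec12a and Clec4e (10.8% of genes), TGANTCA, an AP-1 pattern, in Clec12a alone (7.82%), and GGGA, any base, TTTCC, an NF-kB pattern, in no member (0.414%). All patterns were searched on both strands, and GAGGAA is contained in AGAGGAA. The patterns were chosen with the windows seen, and a match is a description of the letters only. Clec4n had no entry.

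The receptors were ranked by CPM per kilobase, with the gene lengths that the deposited values imply, because only that scale compares different genes. In WT_TAM (site table) Clec4n led with 948 ± 158 CPM per kb (SD, n = 4), followed by Clec7a with 519 ± 119 and then by Clec4d, Clec12a, Clec5a, Clec4a3 and Clec4e between 117 and 101. Those 5 levels did not separate, since each overlapped its neighbour over the libraries. Clec4a2 (61.0 ± 8.96), Clec4a1 (41.1 ± 4.54) and Clec9a (0.33 ± 0.19) followed without overlap. In WT_SP the order was Clec4n (146 ± 9.87 CPM per kb, n = 3), Clec4a3 (63.4 ± 7.55), Clec12a (33.2 ± 2.08), Clec4a1 (23.5 ± 4.26), Clec7a (13.9 ± 0.54), Clec4a2 (11.8 ± 0.90) and Clec4e (3.15 ± 0.44), with no overlap between neighbours. Clec4d, Clec5a and Clec9a (1.73 to 1.29) overlapped at the bottom.

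The shares of the members in the family's summed level were also set side by side. Clec4n made up a like share of the summed CPM per kb, 40.9 to 49.4% in WT_TAM and 47.1 to 51.8% in WT_SP. Clec7a made up 19.99 to 29.1% in WT_TAM and 4.26 to 4.86% in WT_SP. Clec4a3 made up 3.93 to 6.40% and 20.03 to 22.7%, so a member whose level was higher in the tumor still held a smaller share of the family there. These shares were examined after the values were seen and carry no test.

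The signalling partners of the receptors were also compared between tumor and spleen. The counts in each list are to be read against all genes tested, of which 23.1% were higher and 23.6% lower in the tumor. Of 12 activating partners and kinases, 5 were higher and 1 lower in the tumor, with a median log2 fold change of 0.31. Fcer1g, the partner of Clec4e, Clec4d and Clec4n, stood at 1667, 1599, 1722 and 2661 CPM in WT_TAM and at 358, 385 and 364 CPM in WT_SP (log2 fold change 2.34 ± 0.21, adjusted p = 3.95e-05). Tyrobp, the partner of Clec5a, had a log2 fold change of 1.89 ± 0.25 (adjusted p = 0.000358). Src, Prkcd and Fgr, kinases upstream and downstream of SYK, had 3.10, 1.33 and 0.89. Syk itself stood at 271, 249, 263 and 144 CPM in WT_TAM and at 481, 504 and 550 CPM in WT_SP, and fell by 1.18 on the log2 scale (adjusted p = 0.00414). Syk is also expressed in B cells, whose markers were at 7896 to 8990 CPM in these splenic libraries, and their part was not tested. Scaled by the library total alone, Fgr and Prkcd missed the threshold (adjusted p = 0.208 and 0.0703), and the activating list's median was -0.16 with 3 higher and 3 lower, and without WT_TAM replicate 4 there were 8 higher and 2 lower. Fgr also missed it without WT_SP replicate 2 (adjusted p = 0.0527) and on the values as deposited (adjusted p = 0.0827). Over all genes, 2135 were called higher and 5629 lower when scaled by the library total alone. Without WT_TAM replicate 4 the calls over all genes were 4479 higher and 4655 lower, against 3287 and 3364 in the main fit.

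Of 11 genes of the CARD9 complex and the NF-kB and NFAT factors, 1 was higher and 4 lower, with a median of -0.50. Over all genes tested 23.1% were higher and 23.6% lower. Card9 stood at 49.5, 48.1, 46.6 and 47.5 CPM in WT_TAM and at 5.29, 5.79 and 3.52 CPM in WT_SP (log2 fold change 3.20 ± 0.21, adjusted p = 4.88e-06). Nfkb1, Rela, Relb and Nfatc1, transcription factors at the end of the route, had log2 fold changes of -0.85, -0.75, -0.82 and -1.44. Nfkb1 missed the threshold in 6 of the 7 fits that left out a library (adjusted p = 0.0569 to 0.102). Without WT_TAM replicate 4 the list had 3 higher and 5 lower and a median of -0.12, and scaled by the library total alone its median was -0.97. The fit without WT_TAM replicate 4 called 4479 higher and 4655 lower over all genes, against 3287 and 3364 in the main fit. Of 8 inhibitory phosphatases and brakes, Dok2, an adaptor that dampens SYK and Ras signalling, was higher (2.93 ± 0.17, adjusted p = 2.83e-06). Ptpn6 (SHP-1, a phosphatase that binds ITIMs), Cblb and Dok3 were lower, at -0.65, -1.75 and -0.91, and the list's median was -0.29. Of all genes tested, 46.7% passed in either direction. Ptpn6 missed the threshold without WT_TAM replicate 3 or any 1 of the WT_SP libraries (adjusted p = 0.0652 to 0.0944). Without WT_TAM replicate 4 the brakes had 3 higher and 3 lower and a median of -0.091, and scaled by the library total alone their median was -0.76. Their counts, too, stand beside the 4479 higher and 4655 lower over all genes without that library. B and plasma cell markers summed to 7896 to 8990 CPM in WT_SP, and the part of those cells in the lower values of both lists was not tested.

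**Figure D2:**
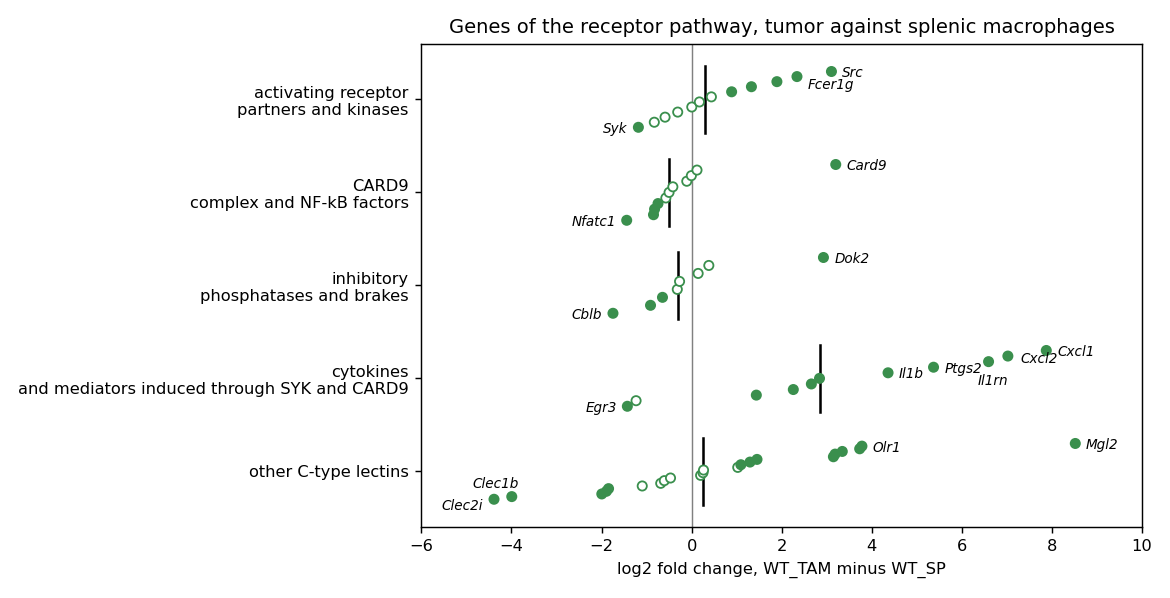
Log2 fold change (WT_TAM minus WT_SP) of each tested gene in the 5 lists, filled where the adjusted p is under 0.05, with a vertical bar at each list's median. The cytokine list lies mostly to the right, with a median of 2.84, while the CARD9 and inhibitory lists have medians of -0.50 and -0.29 with Card9 and Dok2 far to the right.

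The cytokines and mediators that this route can induce were mostly higher in tumor macrophages, with 9 of 11 tested genes higher, 1 lower and a median log2 fold change of 2.84. Over all genes tested 23.1% were higher and 23.6% lower. The neutrophil chemokines Cxcl1 and Cxcl2 had log2 fold changes of 7.87 ± 0.34 and 7.02 ± 0.22 (adjusted p = 9.02e-07 and 3.46e-07), although Cxcl1 rested on only 7, 1 and 1 reads in the splenic libraries. Il1rn, the interleukin-1 antagonist, Ptgs2, the inducible cyclooxygenase, and Il1b had 6.59, 5.37 and 4.36. Il6, Tnf, Egr2 and Il10 had 2.84, 2.66, 2.26 and 1.44, and Il10 missed the threshold without WT_SP replicate 1 (adjusted p = 0.0525). Il6, which is also the list's median gene, rested on 8, 2 and 1 reads in the splenic libraries, and its log2 fold change ran from 1.59 to 4.37 over the alternatives. The part of the fibroblast, tumor cell and mitochondrial levels given above, which were also higher in WT_TAM, was not tested. Egr3, an immediate early transcription factor, was lower at -1.43 (adjusted p = 0.0035). Egr3 passed the filter on low reads through its WT_SP libraries, and Cxcl1, Il6 and Il10 passed it through their WT_TAM libraries. Their tests, and their places in the counts, are therefore not independent of the filter. Other routes, such as Toll-like receptors, also induce the genes of this list.

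Other C-type lectins, for comparison, split in direction. Of 22 tested of 28 listed, 9 were higher and 5 lower, with a median of 0.26. Over all genes tested 23.1% were higher and 23.6% lower. Mgl2 and Clec10a, galactose-binding lectins of macrophages and dendritic cells, had log2 fold changes of 8.52 and 3.73, and Mrc1, the mannose receptor, had 1.09. Olr1, Klrb1b, Mrc2 and Cd93 had 3.78, 3.35, 3.19 and 3.15, and Colec12 and Clec1a had 1.45 and 1.30. Clec2i, Clec1b, Clec4a4, Clec2d and Ly75 were lower, at -4.39, -3.99, -1.99, -1.89 and -1.84. The part of other cells in the splenic libraries was not tested. Clec4a4, an ITIM-bearing neighbour of Clec4a2, differed in the opposite direction to it, with 0.84, 0.20 and 0.17 CPM in WT_TAM replicates 1 to 3, 0 reads in replicate 4 (which allows up to 0.49 CPM), and 1.90, 2.47 and 3.23 CPM in WT_SP. Clec4a4 passed the filter on low reads through its WT_SP libraries, and Mgl2, Olr1, Mrc2 and Clec1a passed it through their WT_TAM libraries. Their tests, and their places in the counts, are therefore not independent of the filter. Mrc1 missed the threshold (adjusted p = 0.118) and the list's median was -0.08 when values were scaled by the library total alone. Mrc1 also missed it without WT_SP replicate 3 (adjusted p = 0.0641). The list's median was 0.70 without WT_TAM replicate 4, 0.47 without WT_SP replicate 3, 0.060 without the filter on low reads and 1.02 with a filter of 30 reads.

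The comparison of KO_TAM with WT_TAM asks what loss of Sin1, a subunit of the kinase complex mTORC2, does in tumor macrophages. No receptor passed the threshold (0 of 10), nor did any of the 12841 genes tested (0%) in limma. By unadjusted p under 0.05, 18.3% of all genes and 3 of the 10 receptors passed, namely Clec7a, Clec9a and Clec4e. Clec9a passed the filter on low reads through its KO_TAM libraries, so its place in this count is not independent of the filter. No receptor had groups that did not overlap, against 15.1% of all genes. The mean was higher in KO_TAM for 8 receptors and lower for Clec4a2 and Clec4a3, while it was higher for 6478 of all 12841 genes. The median log2 fold change was 0.28, against 0.00 over all genes. None of the 10 passed in any of the 18 other settings tried.

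**Figure D3:**
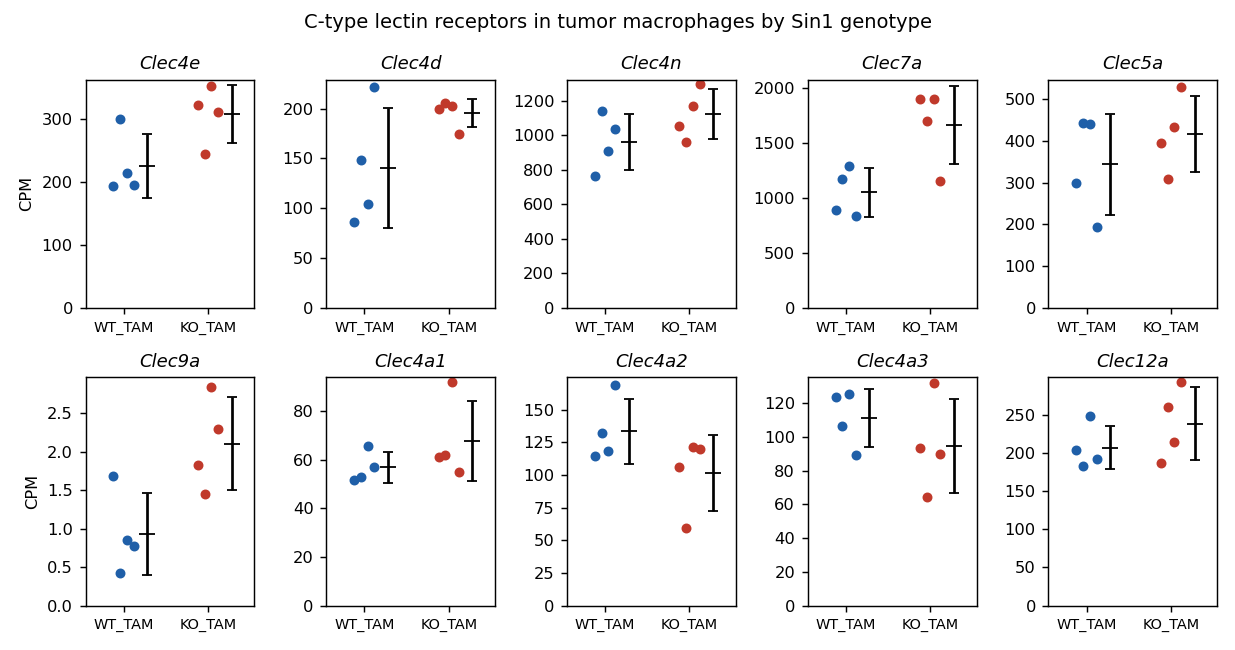
CPM of each receptor in the WT_TAM (blue) and KO_TAM (red) libraries of the genotype table, n = 4 each, with the mean and SD beside the points and the axis from 0. The groups overlap in every panel, with 3 of 4 KO_TAM libraries above all WT_TAM libraries for Clec7a.

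Clec7a stood at 893, 1173, 1291 and 836 CPM in WT_TAM and at 1895, 1699, 1895 and 1148 CPM in KO_TAM. KO_TAM replicate 4 lay within the WT_TAM range and the other 3 lay above it. The log2 fold change was 0.66 ± 0.23 with a 95% interval, not adjusted for the number of genes, of 0.16 to 1.16 (unadjusted p = 0.0149, adjusted p = 0.195 in limma). Over the alternatives its adjusted p was 0.103 to 0.392. Clec9a stood at 1.69, 0.42, 0.85 and 0.77 CPM in WT_TAM and at 1.83, 1.45, 2.84 and 2.29 CPM in KO_TAM, from 24, 14, 34 and 26 reads. Its log2 fold change was 0.90 ± 0.34 (adjusted p = 0.222), and WT_TAM replicate 1 lay among the KO_TAM values. Clec1b, which shares windows with Clec9a, had means of 1.06 CPM in WT_TAM and 2.52 CPM in KO_TAM. The part of shared reads was not tested. The 8 type 1 dendritic cell markers summed to 448 to 482 CPM in WT_TAM and 455 to 522 CPM in KO_TAM, of which Irf8 made up 370 to 393 and 345 to 420 CPM. The other members went both ways, with Xcr1 at 1.24 to 5.94 CPM in WT_TAM and 2.58 to 7.58 CPM in KO_TAM and Cadm1 at 13.9 to 23.5 and 5.37 to 22.6 CPM.

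Clec4e stood at 194, 301, 215 and 195 CPM in WT_TAM and at 324, 245, 354 and 311 CPM in KO_TAM. WT_TAM replicate 2 and KO_TAM replicate 2 crossed, and the log2 fold change was 0.46 ± 0.20 (adjusted p = 0.269). Clec4d stood at 86.6, 148, 104 and 222 CPM in WT_TAM and at 200, 206, 203 and 174 CPM in KO_TAM. The KO_TAM libraries were closely grouped, while WT_TAM replicate 4 had the highest value of all 8. The log2 fold change was 0.57 ± 0.27 (adjusted p = 0.292), and it was 0.82 without WT_TAM replicate 4. Clec4n, at 766, 1139, 911 and 1036 CPM in WT_TAM and 1055, 963, 1173 and 1296 CPM in KO_TAM, had a log2 fold change of 0.23 ± 0.19 (adjusted p = 0.51).

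Clec5a stood at 299, 443, 441 and 193 CPM in WT_TAM and at 395, 309, 434 and 529 CPM in KO_TAM. Its log2 fold change of 0.33 ± 0.29 (adjusted p = 0.537) was 0.08 without WT_TAM replicate 4, the lowest library. Clec4a2 stood at 114, 132, 118 and 169 CPM in WT_TAM and at 106, 59.3, 122 and 120 CPM in KO_TAM. Its log2 fold change of -0.43 ± 0.25 (adjusted p = 0.371) was -0.07 without WT_TAM replicate 4 and KO_TAM replicate 2, the highest and the lowest library. Clec4a3, at 123, 106, 126 and 89.4 CPM in WT_TAM and 93.4, 64.3, 132 and 89.9 CPM in KO_TAM, had -0.26 ± 0.23 (adjusted p = 0.543), and -0.09 without KO_TAM replicate 2. Clec4a1 had 0.23 ± 0.20 (adjusted p = 0.538) with CPM of 51.5 to 65.7 in WT_TAM and 55.2 to 91.9 in KO_TAM, and 0.07 without KO_TAM replicate 3. Clec12a had 0.19 ± 0.20 (adjusted p = 0.601) with CPM of 184 to 248 and 187 to 293.

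Within a library, the CPM of Clec4n, Clec4d, Clec4e, Clec7a and Clec5a, summed and not corrected for length, was 7.74, 10.97, 9.57 and 7.86 times that of Clec4a1, Clec4a2 and Clec4a3 in WT_TAM and 14.8, 18.4, 11.7 and 13.03 times in KO_TAM. The same ratio was 1.34, 1.66 and 1.51 in WT_SP. The ratio is free of the scaling between libraries. It was formed after the values were seen, in part from members whose means went opposite ways, and carries no test. Per kilobase, Clec4n (983 ± 127 CPM per kb, n = 4) and Clec7a (729 ± 155) led in KO_TAM too, and Clec4d, Clec4e, Clec5a, Clec12a, Clec4a3, Clec4a1 and Clec4a2 followed with each overlapping the next. Clec9a was again the lowest (0.65 ± 0.19).

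**Figure D4:**
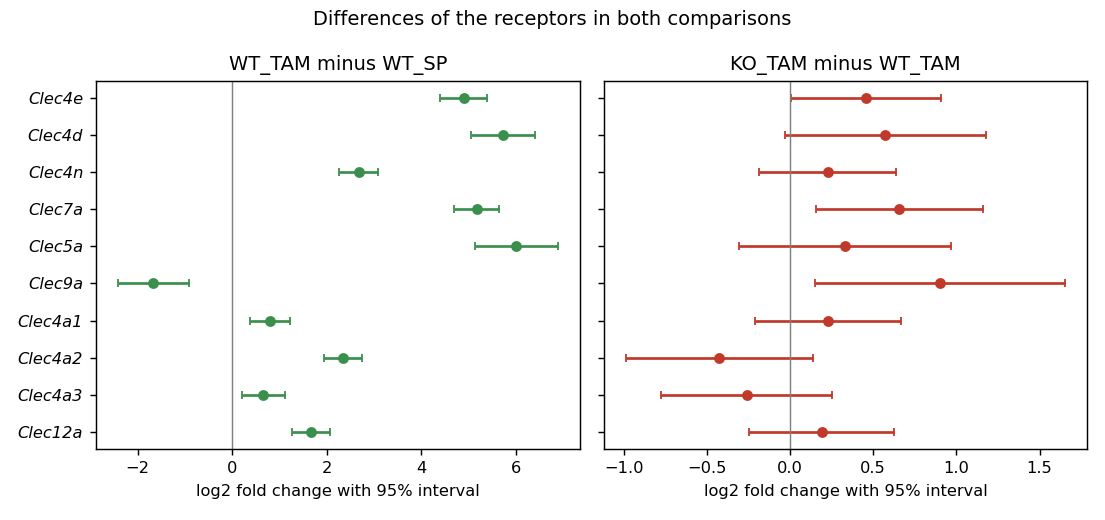
Log2 fold change of each receptor with its 95% interval, not adjusted for the number of genes, for WT_TAM minus WT_SP (left) and KO_TAM minus WT_TAM (right), on different scales. Both panels use the same 4 WT_TAM libraries, so they are not independent, and the right panel spans -0.43 to 0.90 where the left spans -1.67 to 6.02.

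Markers of other cells differed between the KO_TAM and WT_TAM libraries. Neutrophil markers (10 genes) summed to 277 to 954 CPM in KO_TAM and 111 to 206 CPM in WT_TAM, while Cxcr2, a defining neutrophil gene, stood at 0.09 to 1.91 CPM in all 8 libraries. Ly6g, another, had 2 reads in KO_TAM replicate 1, 1 read in WT_TAM replicate 1 and 0 in the others, where 3 reads are 0.23 to 0.46 CPM. Eosinophil, basophil and mast cell markers (9 genes) summed to 247 to 944 CPM in KO_TAM and 22.8 to 176 CPM in WT_TAM, with the highest value in KO_TAM replicate 2. Fibroblast markers (7 genes) were at 30.5 to 237 CPM in KO_TAM and 394 to 871 CPM in WT_TAM. Transcripts of the mitochondrial genome (9 genes) were at 3830 to 15836 CPM and 9679 to 60872 CPM. The 9 macrophage identity markers summed to 6693 to 8369 CPM in KO_TAM and 9162 to 18771 CPM in WT_TAM, with the highest value in WT_TAM replicate 4. C1qa, C1qb and C1qc carried that difference, with C1qb at 1855 ± 439 CPM in KO_TAM and 4209 ± 2371 in WT_TAM (SD, n = 4). Other members went the other way, with Adgre1 at 850 ± 418 and 455 ± 140 CPM and Itgam at 278 to 358 and 176 to 252 CPM without overlap. Monocyte markers (8 genes) summed to 2096 to 5070 CPM in KO_TAM and 1426 to 2562 CPM in WT_TAM. The part of these markers in the receptor values was not tested.

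The pathway lists held no called gene in this comparison. Of the activating partners and kinases 9 of 12 had the higher mean in KO_TAM, as did 6478 of all 12841 genes tested. The list's median log2 fold change of 0.33 shrank to 0.098 when WT_TAM replicate 4 was left out and to 0.21 when KO_TAM replicate 2 was. Prkcd had 0.46, with groups that overlapped, and 0.18 without WT_TAM replicate 4. Groups of 3 of the 12 did not overlap, all higher in KO_TAM, against 15.1% of all genes in either direction. Syk was among them, with means of 340 CPM in KO_TAM and 205 CPM in WT_TAM. Its log2 fold change was 0.72 ± 0.25 (adjusted p = 0.200 in limma), and ran from 0.37 to 0.83 over the alternatives. The receptor partners Fcer1g and Tyrobp had -0.16 and -0.18, and both values crossed 0 without WT_TAM replicate 4. The CARD9 and NF-kB list (11 genes) had a median of 0.20, with Malt1, Nfatc1, Bcl10 and Nfkb2 at 0.85, 0.28, 0.20 and -0.16. Leaving out WT_TAM replicate 4 gave a median of 0.048, with Malt1 at 0.36, and leaving out KO_TAM replicate 2 gave 0.094. The inhibitory list (8 genes) had a median of 0.12, with Inpp5d, Ptpn6, Dok3 and Dok2 at 0.30, 0.13, 0.10 and -0.03. Over the fits that left out 1 library this median ran from -0.0085 (without KO_TAM replicate 2) to 0.27 (without KO_TAM replicate 3), and so changed sign. Groups of 1 of the 8 did not overlap, against 15.1% of all genes. That gene was Cblb, with means of 46.5 CPM in KO_TAM and 19.7 CPM in WT_TAM. Its log2 fold change was 1.23 ± 0.33 (adjusted p = 0.133 in limma), and ran from 0.81 to 1.48 over the alternatives.

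Of 10 tested cytokines and mediators, 9 had the higher mean in KO_TAM, with a median of 0.57 that was 0.26 without WT_TAM replicate 4. Of all 12841 genes tested, 6478 had the higher mean in KO_TAM. Il1rn stood at 759, 1049, 697 and 399 CPM in WT_TAM and at 1525, 2057, 1409 and 1061 CPM in KO_TAM, without overlap (log2 fold change 1.10 ± 0.30, adjusted p = 0.138). Cxcl2 also had groups that did not overlap (0.66 ± 0.20, adjusted p = 0.168). Groups of 3 of the 10 did not overlap, all higher in KO_TAM, against 15.1% of all genes in either direction. Ptgs2 and Il1b had 1.43 ± 0.57 (adjusted p = 0.237) and 0.09 ± 0.23 (adjusted p = 0.853), and Ptgs2 had 0.78 without WT_TAM replicate 4. Other C-type lectins (20 tested) had a median of 0.09, with Mrc1, Cd93, Mgl2 and Cd69 at 0.52, 0.29, 0.19 and 0.08. The median was -0.11 without WT_TAM replicate 4, and with 1 library left out Mgl2 ran from 0.0040 (without KO_TAM replicate 3) to 0.41 (without KO_TAM replicate 2) and Cd93 from 0.059 (without WT_TAM replicate 1) to 0.61 (without WT_TAM replicate 4).

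Across the 8 tumor libraries, the gene outside the family with the pattern most like each receptor was found among the 12831 other genes tested, by Pearson correlation of log2(CPM + 0.5). It was Ube2a for Clec4n (r = 0.93), Gm11496 for Clec4d (0.97), Dnmt3l for Clec4e (0.96), Eea1 for Clec7a (0.96) and Mtpap for Clec5a (0.98). It was Uggt1 for Clec12a (0.96), Gm13157 for Clec4a1 (0.95), Zfp668 for Clec4a2 (0.99), Fam210a for Clec4a3 (0.97) and Gm17907 for Clec9a (0.95). These are the highest of many correlations over 8 libraries of 2 genotypes that share depth and marker differences, and are given as a description. No gene was nearest to more than 1 receptor. Within the family the highest correlation was between Clec4n and Clec4e (0.77).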

How the data were processed

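Bulk RNA-seq was measured in 11 libraries, and the samples were grouped by their genotype and tissue labels. The deposited values are scores that the authors made from read counts: mm10, HTSeq, SAMtools, DESeq2, TopHat2, HISAT and HISAT2 are named, without roles, per the submitters' processing notes. Poly-A selection, strand, annotation and read length were not given in the sources used here. These deposited scores followed a constant times reads over length and library total, multiplied by the ratio of 2 libraries' size factors, with the factors recycled down the rows. Dividing these out gave whole reads (tolerance 1e-05 reads) in 99.9% to 100% of values, and their sums reached 99.4% to 100.0% of the library totals. In the table of the genotype comparison, 35 genes did not give whole reads and were left out; none is a receptor or a listed gene.

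Reads were scaled to CPM by library total and the authors' factor, and compared within each table on log2(CPM + 0.5) with limma 3.58.1 (trend, robust, two-sided) in R 4.3.3. Because 0.5 CPM was added before logs were taken, fold changes of low genes are understated. Genes needed the CPM that 10 reads give in the median library in as many libraries as the smaller group holds, and 15 reads in all. P-values were adjusted over all genes tested, with a threshold of 0.05. In simulated data this fit recovered 98.9% of 4-fold and 22.4% of 2-fold changes in the genotype comparison (12666 genes), and 91.6% and 21.1% in the site comparison (13882 genes). The simulation gave every gene the same assumed dispersion, not estimated from these data, and held no outlying library. These shares check the fit and are not its power in these data. A lone library's limit at 0 reads is 3 reads, and covers counting error only.

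Members and lists were chosen with earlier results of these data known. Named were all 10 receptors and, of each pathway list, the called genes or otherwise the 4 with the highest mean CPM. For each receptor the gene with the highest correlation was also named. Single marker genes, and Syk, Cblb and Clec1b in the genotype comparison, were named after their values were seen. A listed gene that the rule would name is not reported here. Alternatives were other pseudocounts, filters, scaling, voom, a replicate block, left-out libraries, the values as deposited and a fit of all 3 groups. Promoter windows and coding starts came from RefSeq (GRCm38.p6) and GENCODE vM21; 9 of 10 members matched a window.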

Additional observations from a re-analysis of the deposited data

How the results depend on the processing

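No receptor changed direction in any alternative of either comparison. In the site comparison 151 of 160 alternative values of receptors kept their side of the threshold, and the others were those of Clec4a1 and Clec4a3 given above, with Clec4a1 also missing it on the values as deposited (adjusted p = 0.071). The receptors called numbered 9 to 10 when a library was left out, and the genes called 4977 to 9134 of a main count of 6651. The highest count came without WT_TAM replicate 4. Relb, Dok3 and Ptpn6 missed the threshold on the values as deposited (adjusted p = 0.102, 0.0885 and 0.169), and Colec12 with all 3 groups in 1 fit (adjusted p = 0.0559). In the genotype comparison the genes called numbered 0 in limma (2350 at an unadjusted p under 0.05), 0 in limma voom and in each of the 8 fits that left out a library, and 98 without the filter, 65 without WT_TAM replicate 4 and KO_TAM replicate 2, 83 with all 3 groups in 1 fit and 3 on the values as deposited; none of these was a receptor or a pathway gene, and the cause was not tested. Clec9a was not tested under the filter of 30 reads. Uncalled values of listed genes crossed 0. With libraries left out 1 at a time the log2 fold changes were -0.25 to 0.036 for Fcer1g, -0.28 to 0.066 for Tyrobp, -0.037 to 0.39 for Nfatc1, -0.071 to 0.019 for Dok2, -0.13 to 0.32 for Dok3, -0.029 to 0.22 for Il1b and -0.27 to 0.32 for Cd69. Without both libraries named above they were 0.052 for Fcer1g, -0.16 for Nfatc1, -0.058 for Bcl10, -0.084 for Ptpn6, -0.051 for Inpp5d and -0.21 for Cd69, and Dok2 was at 0.038 when scaled by the library total alone. Replicate numbers were not taken to pair the samples. In their deviations, same-numbered KO_TAM and WT_TAM libraries correlated at -0.16 to 0.20, and WT_TAM and WT_SP libraries at -0.09 to 0.10. Not every library correlated best with its own number. So few libraries cannot exclude a pairing. With the numbers as a replicate block the genes called were 0 in the genotype comparison and 9115 in the site comparison (WT_TAM replicate 4 has no partner there), and the receptors called were 0 and 10. Depth limits Clec9a most, with 5 to 34 reads in the tumor libraries.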
